A study of Mus musculus with 12 samples.

Results

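The mRNA of 10 genes was followed in mouse left ventricle: the membrane-anchored sheddases Adam17, Adam10, Adam8, Adam9, Adam12, Adam15 and Adam19, and the ADAM17 partners Rhbdf1 (iRhom1), Rhbdf2 (iRhom2) and Frmd8. They were taken by gene name from a table of 53465 genes, in which each of the 10 names has 1 row. RNA was sequenced from 12 male mice of C57BL/6J background that fall into 4 groups of 3. All of them carry floxed Adam17. The A17fl/fl mice have no Cre, while in their A17α-MHCKO littermates the α-MHC promoter drives Cre in cardiomyocytes, so that Adam17 of the other cells of the heart stays intact. Mice of each genotype received either normal saline (A17fl/fl + NS and A17α-MHCKO + NS) or doxorubicin (A17fl/fl + DOX and A17α-MHCKO + DOX) by intraperitoneal injection, starting at 8 weeks of age. Doxorubicin, an anthracycline, was given in 4 doses of 5 mg/kg up to day 21, 20 mg/kg in all, and hearts were taken 4 weeks later. The comparisons ask whether the sheddases and the iRhom partners differ between these genotypes, whether doxorubicin goes with a change in their mRNA, and whether that change differs between the genotypes.

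Sheddases cut the extracellular part of membrane proteins close to the membrane and so release cytokines, growth factors and receptor ectodomains. ADAM17, also called TNF-α converting enzyme, releases soluble TNF-α, ligands of the EGF receptor and TNF receptors. ADAM10 is its closest relative and makes the first cut of activated Notch receptors. The iRhoms are catalytically inactive relatives of rhomboid proteases that carry ADAM17 out of the endoplasmic reticulum and stay bound to it, and FRMD8 (iTAP) binds the iRhoms and keeps the complex at the cell surface. Furin removes the prodomain of ADAM17 on the way, and TIMP3 inhibits the mature enzyme.

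The deleted segment, the junction its loss makes and the promoters of the 2 most related sheddases are shown because the comparisons below turn on Adam17 and on its ratio to Adam10. Adam17 (ENSMUSG00000052593) lies on the minus strand of chromosome 12, and its exon 2, given 5′ to 3′ as mRNA sense, is chr12:21361659-21361791 of GRCm38 in a protein-coding transcript of 19 exons in GENCODE M21. In the junction, capitals mark the 15 bases of exon 3 that follow exon 1 when exon 2 is absent. In the promoters, capitals mark matches to the Sp1 letters GGGCGG or to the CCAAT box, on either strand.
Adam17 exon 2: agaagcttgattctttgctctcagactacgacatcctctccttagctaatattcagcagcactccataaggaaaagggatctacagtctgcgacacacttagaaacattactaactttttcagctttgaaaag
Adam17 exon 1 joined to exon 3: cccatccgcgacttgACATTTTAAATTATA
Adam17 promoter: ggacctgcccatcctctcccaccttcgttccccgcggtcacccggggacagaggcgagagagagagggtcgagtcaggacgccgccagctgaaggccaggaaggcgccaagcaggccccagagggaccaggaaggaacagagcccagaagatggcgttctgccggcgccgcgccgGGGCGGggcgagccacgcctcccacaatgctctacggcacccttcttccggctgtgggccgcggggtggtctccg
Adam10 promoter: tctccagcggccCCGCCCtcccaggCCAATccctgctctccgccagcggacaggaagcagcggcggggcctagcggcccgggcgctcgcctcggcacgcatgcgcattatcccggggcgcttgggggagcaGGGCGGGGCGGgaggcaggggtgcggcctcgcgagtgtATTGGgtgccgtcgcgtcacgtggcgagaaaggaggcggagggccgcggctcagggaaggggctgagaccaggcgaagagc
Exon 2 holds 133 bases, all of them coding, which leaves a remainder of 1 over 3. The reading frame of this transcript has 827 codons before its stop, and without exon 2 a stop in exon 3 follows after 38 codons, 32 of which lie in exon 1. The exon is 2.99% of the 4443 bases of the transcript, so a count over the whole gene keeps the reads of transcripts that have lost it. Of the 7 annotated Adam17 transcripts that span this position, 6 hold the exon, and 1 of type nonsense-mediated decay joins exon 1 to exon 3.

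The promoter sequences are the 250 bases before the start given by RefSeq (GRCm38.p6), chr12:21373633-21373882 on the minus strand for Adam17 and chr9:70678732-70678981 on the plus strand for Adam10. In the Adam17 window the Sp1 letters occur 1 time, with the first base at -75 from the start. The CCAAT box and the C/EBP letters TTNNGNAA, which both strands were searched for, have no match there. The Adam10 window holds 3 Sp1 matches, at -238, -119 and -114, of which the last 2 share a base, and 2 CCAAT boxes, at -225 and -81. Of all 32851 promoter windows of this length, 32.74% hold the Sp1 letters, 33.85% the CCAAT box and 36.85% the C/EBP letters. Sequences were found for 6 of the 10 genes, and none is given for Adam9, Adam12, Rhbdf1 and Rhbdf2.

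Each library held between 15950717 and 21725076 counted fragments, with a median of 16413855. Levels of a gene across libraries are given as CPM, the counts of a gene relative to the TMM-scaled total of its library, and levels of different genes are compared as the deposited FPKM, which are per gene length. The cardiac label was borne out by 9 of 9 cardiomyocyte markers detected in all libraries, with summed levels of 18177 to 47421 CPM. The 4 atrial markers summed to between 332 and 8048 CPM, and to between 332 and 6972 CPM within A17fl/fl + NS alone. In that group Nppa had 331 to 4199 CPM, Myl7 0 to 1019, Sln 0 to 392 and Myl4 1.38 to 1363 CPM. Whether the samples held atrial tissue was not tested. Replicate 1 of A17fl/fl + NS stood apart from the rest. Its mean correlation with the other libraries over log2 CPM was 0.900, against 0.948 to 0.966 for the other 11. In this library the summed CPM of 6 neutrophil markers was 2218 against 5.21 to 65.5 in the others, that of 8 fibroblast markers 8655 against 1414 to 3052, and that of 9 macrophage markers 1260 against 509 to 701. The fibroblast markers were not raised alike. In A17fl/fl + NS, Col3a1, Col1a1 and Col1a2 reached 3801, 2262 and 1335 CPM, against at most 801, 379 and 433 CPM in the other groups. Pdgfra reached 118 against 84.5 CPM. The highest Dcn, Lum, Tcf21 and Dpt levels of A17fl/fl + NS lay below those of A17α-MHCKO + NS. The cardiomyocyte sum of replicate 1 was the lowest, and the member results that rest on this library are therefore given with and without it.

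On the FPKM scale the sheddases fell into a broad middle range of expression, with 2 members close to the floor. Median levels over the 12 libraries were 10.2 FPKM for Adam10, 9.22 for Adam15 and 8.05 for Adam9. Adam19 followed at 4.39 and Adam17 at 3.57 FPKM, and the 3 partners lay beside them, Frmd8 at 3.52, Rhbdf2 at 3.16 and Rhbdf1 at 3.03 FPKM. Adam8, a sheddase of leukocytes, had a median of 0.311 FPKM and Adam12, a sheddase of regenerating muscle and of placenta, a median of 0.0782 FPKM. Adam9 was above Adam19 in 12 of 12 libraries and Frmd8 above Rhbdf2 in 11. Neighbours that could not be separated by their spread were Adam10 and Adam15 (Adam10 higher in 7 of 12 libraries), Adam19 and Adam17 (6 of 12), Adam17 and Frmd8 (7 of 12) and Rhbdf2 and Rhbdf1 (7 of 12). At its median Adam17 lay above 59.9% of the tested genes, Adam10 above 81.5% and Adam12 above 2.2%.

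**Figure D1:**
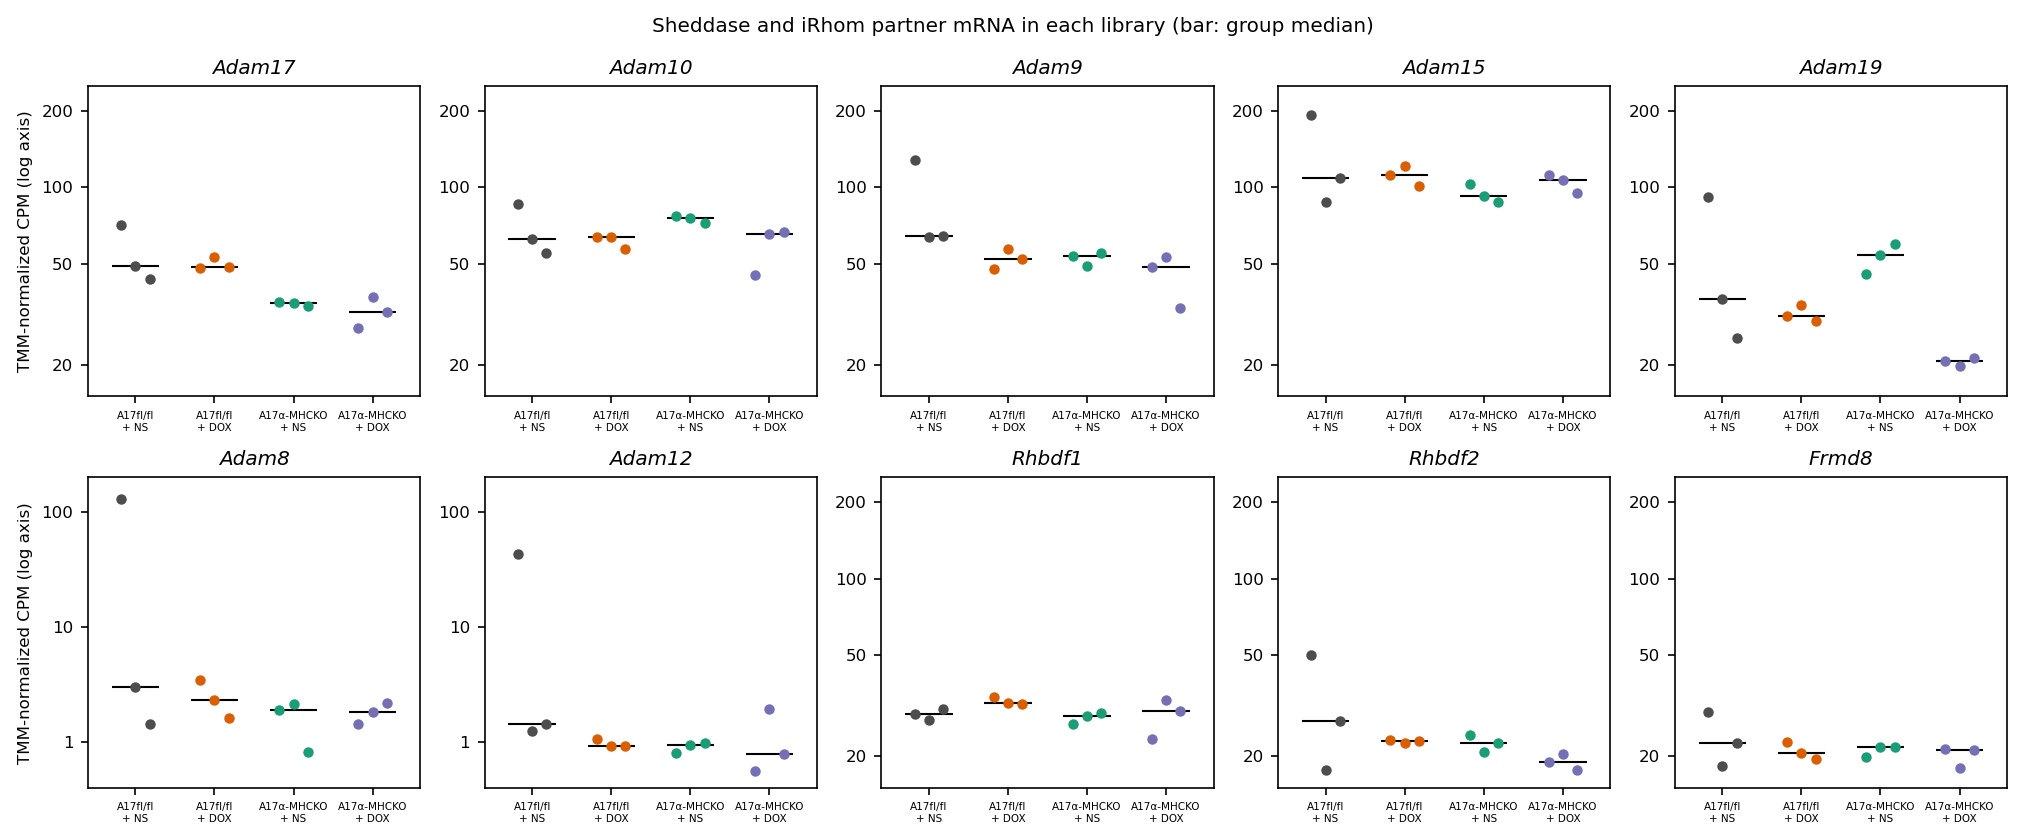
TMM-normalized CPM on a log axis in the 12 libraries, a panel for each of the 10 genes, with points for single libraries and a bar at each group median. The panels of Adam8 and Adam12 have their own axis range, and replicate 1 of A17fl/fl + NS reaches 131 CPM for Adam8 and 43.6 CPM for Adam12.

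Of the summed FPKM of the 7 sheddases, Adam17 made up 10% ± 2.63 (SD, n = 3) in A17fl/fl + NS and 12.3% ± 0.341 in A17fl/fl + DOX libraries. Its share was 8.18% ± 0.139 in A17α-MHCKO + NS and 9.28% ± 0.721 in A17α-MHCKO + DOX libraries. The lowest single share, 7.00%, was that of A17fl/fl + NS replicate 1, where Adam8 alone took 21.8%. Adam10, Adam15 and Adam9 had the 3 largest mean shares in every group, and the mean share of Adam19 was 18.1% ± 2.49 in A17α-MHCKO + NS and 8.64% ± 0.927 in A17α-MHCKO + DOX libraries.

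**Figure D2:**
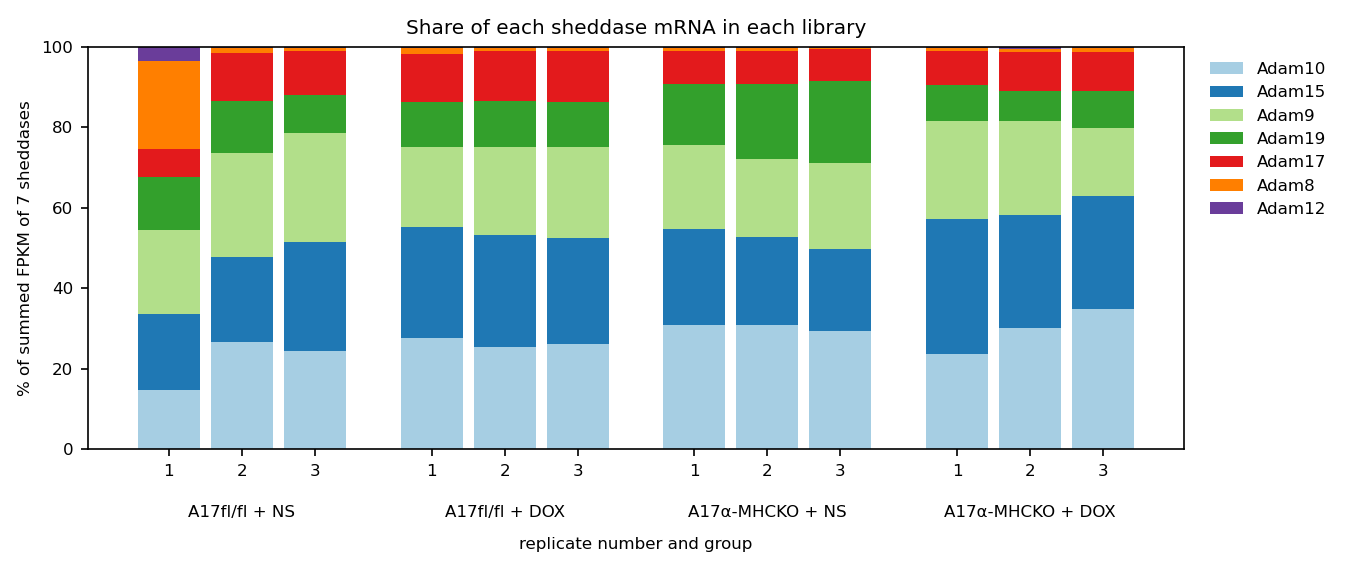
Stacked bars give the percentage of the summed FPKM of 7 sheddases taken by each of them, for the 12 libraries ordered by group and replicate number. Adam8 takes 21.8% in A17fl/fl + NS replicate 1 and at most 1.46% in the other 11, and Adam19 takes between 15.4% and 20.2% in the A17α-MHCKO + NS libraries.

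All 10 members passed the filter on low counts and were among the 16101 genes tested. At an adjusted p under 0.05 (edgeR's quasi-likelihood test, Benjamini-Hochberg over all tested genes), 0 members were called in any of the 7 comparisons. The share of all tested genes called at that limit was 0% for doxorubicin in either genotype, 0% for the interaction and 0% for doxorubicin over both genotypes. It was 0.0186% for the genotypes after saline, 0.00621% for the genotypes after doxorubicin and 0.0248% for the genotypes over both treatments. DESeq2 called 1 member over both treatments between the genotypes (Adam17), 1 member for doxorubicin over both genotypes (Adam19) and 0 elsewhere, and limma's voom with library weights called 1 (Adam19, doxorubicin in A17α-MHCKO mice).

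At an unadjusted p under 0.05, doxorubicin went with 3 members in A17fl/fl mice (Adam8, Adam9 and Adam12, all lower), where 10.7% of all genes passed. It went with 1 member in A17α-MHCKO mice (Adam19, lower; 6.42% of all genes) and with 4 over both genotypes (Adam19, Adam8, Adam9 and Adam12, all lower; 10.7% of all genes). Between the genotypes, 4 members passed after saline (Adam17, Adam8, Adam9 and Adam12, all lower in A17α-MHCKO mice), with 10.1% of all genes. After doxorubicin only Adam17 passed, with 2.7% of all genes, and over both treatments the same 4 members as after saline passed, with 6.65% of all genes. For the interaction 2 passed (Adam8 and Adam12), with 5.99% of all genes.

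These counts were different without A17fl/fl + NS replicate 1. Adam8 and Adam12 passed in none of the 7 comparisons, and Adam9 passed only for doxorubicin over both genotypes, beside Adam19 (15% of all genes). No member passed for doxorubicin in A17fl/fl mice (10.2% of all genes), and 2 passed in A17α-MHCKO mice (Adam10 and Adam19, both lower; 11.5% of all genes). Between the genotypes, Adam17 (lower) and Adam19 (higher) passed after saline (10.2% of all genes), both of them, lower, after doxorubicin (5.85%), and Adam17 alone over both treatments (10.3%). Adam19 alone passed for the interaction (7.13%). At an adjusted p under 0.05, 1 member was then called, Adam19 for doxorubicin in A17α-MHCKO mice, where 0.0061% of all genes were called.

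Under the limits of the study's methods (unadjusted p under 0.05, more than a doubling or its inverse, mean FPKM above 1 in either group), 2 members passed for doxorubicin in A17fl/fl mice, Adam8 and Adam12, with 3.86% of the eligible genes. Both reached the FPKM limit through A17fl/fl + NS replicate 1, with 21.6 FPKM for Adam8 against 0.467 and 0.205 in the other A17fl/fl + NS libraries, and 3.47 FPKM for Adam12 against 0.0948 and 0.0991, and the same library carried their fold changes. Under the same limits 0 members passed between the genotypes after doxorubicin, with 0.288% of the eligible genes.

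Groups that did not overlap were also counted. In each of the 4 comparisons of 3 against 3 libraries, 3 members had no overlap, where the share of all genes was 13.3% for doxorubicin in A17fl/fl mice, 16.9% for doxorubicin in A17α-MHCKO mice, 10.9% between the genotypes after saline and 14.1% between them after doxorubicin. With 6 against 6 libraries, 0.335% of all genes (54) had no overlap between the genotypes, Adam17 among them, and 1.16% had none between the treatments, with 0 members.

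Adam17 mRNA was lower in A17α-MHCKO than in A17fl/fl hearts after either treatment. The A17fl/fl + NS libraries had 70.9, 48.7 and 43.6 CPM, from 1228, 814 and 696 counts, and the A17fl/fl + DOX libraries 48.1, 53.2 and 48.4 CPM. In A17α-MHCKO mice the values were 35.3, 34.9 and 34.2 CPM with saline and 27.9, 36.8 and 32.2 CPM with doxorubicin, and the lowest library rested on 443 counts. The highest of the 6 A17α-MHCKO libraries thus lay below the lowest of the 6 A17fl/fl libraries, and the mean was 33.5 ± 3.16 CPM against 52.2 ± 9.66 CPM (SD, n = 6). Over both treatments the log2 fold change was -0.64 (SE 0.12, unadjusted p = 2.9e-04, adjusted p = 0.446), and over the alternative analyses the adjusted p ranged from 0.00409 (DESeq2) to 0.974. Without A17fl/fl + NS replicate 1 it was -0.52 (SE 0.09, adjusted p = 0.128).

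With all libraries the genotype difference in Adam17 was of like size in the 2 treatments. The log2 fold change was -0.64 (SE 0.17, adjusted p = 0.313) after saline and -0.63 (SE 0.18, adjusted p = 0.9998) after doxorubicin. The interaction was 0.02 (SE 0.25, adjusted p = 0.992). Without A17fl/fl + NS replicate 1 the genotype values were -0.41 (SE 0.13) after saline and -0.63 (SE 0.12) after doxorubicin, and the interaction was -0.22 (SE 0.17). Doxorubicin itself, with all libraries, went with a log2 fold change of -0.12 (SE 0.17, adjusted p = 0.820) in A17fl/fl mice and -0.11 (SE 0.17, adjusted p = 0.937) in A17α-MHCKO mice. Without that replicate the A17fl/fl value was 0.11 (SE 0.13), so the sign turned, and the value over both genotypes moved from -0.12 (SE 0.12) to 0.00 (SE 0.09). In whole tissue, fewer cardiomyocytes and less mRNA per cardiomyocyte cannot be told apart. The summed cardiomyocyte markers after doxorubicin were 41898 to 46464 CPM in A17fl/fl and 41304 to 47421 CPM in A17α-MHCKO libraries. After saline the sums were 18177 to 39410 CPM and 28260 to 35569 CPM. The genotypes overlapped in these sums after either treatment, and their part in the Adam17 difference was not tested. Iah1, which overlaps 311 exon bases of Adam17 on the opposite strand and could share reads with it where strand was not used in counting, had 9.87 to 15.6 CPM over the A17fl/fl and 10.2 to 15.2 CPM over the A17α-MHCKO libraries.

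Setting Adam17 against Adam10 within each library removed the scaling between libraries, and the genotypes separated more widely. The ratio also depends on Adam10, whose genotype log2 fold change after saline was 0.14 (SE 0.19). Without A17fl/fl + NS replicate 1 that Adam10 value was 0.34 (SE 0.16), and its part in the wider separation was not tested. There were 0.826, 0.777 and 0.789 Adam17 counts per Adam10 count in A17fl/fl + NS and 0.753, 0.838 and 0.845 in A17fl/fl + DOX libraries. In A17α-MHCKO libraries the ratio was 0.461, 0.464 and 0.472 after saline and 0.619, 0.560 and 0.482 after doxorubicin. The 3 saline-treated A17fl/fl libraries, the one that stood apart among them, differed from each other by little, and so did the 3 saline-treated A17α-MHCKO libraries. The mean log2 ratio was lower by genotype, at -0.67 or 0.630-fold (exact permutation test within treatment, two-sided p = 0.005, the smallest that 400 arrangements allow, adjusted over 2 factors p = 0.01). Every A17α-MHCKO library, 6 of 6, lay below every A17fl/fl library. Doxorubicin went with a log2 ratio difference of 0.13 (exact permutation test, p = 0.085, adjusted p = 0.085), which did not pass, while the unadjusted exact p was 0.01 without A17fl/fl + DOX replicate 1 and 0.04 without A17α-MHCKO + DOX replicate 3. With the sum of the other 6 sheddases as denominator the genotype difference was -0.37 (exact permutation test, p = 0.02).

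**Figure D3:**
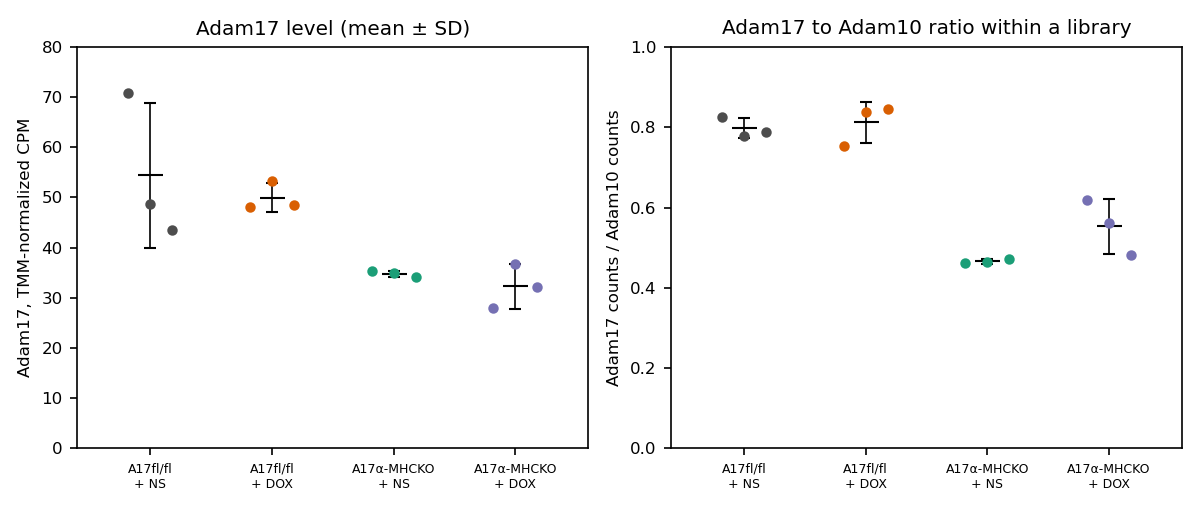
Left, TMM-normalized CPM of Adam17; right, Adam17 counts divided by Adam10 counts of the same library; points are the 3 libraries of each of the 4 groups and bars the mean ± SD. The A17α-MHCKO ratios lie between 0.461 and 0.619 and the A17fl/fl ratios between 0.753 and 0.845.

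Adam10 mRNA (ENSMUSG00000054693, chr9:70678997-70780229 of GRCm38) did not separate the genotypes over both treatments. It had 85.8, 62.7 and 55.3 CPM in A17fl/fl + NS, 63.9, 63.5 and 57.3 in A17fl/fl + DOX, 76.6, 75.4 and 72.4 in A17α-MHCKO + NS and 45.1, 65.6 and 66.7 in A17α-MHCKO + DOX libraries. The A17α-MHCKO + NS libraries were close to each other and above all 3 A17α-MHCKO + DOX libraries, while the A17fl/fl groups overlapped. The log2 fold change was 0.04 (SE 0.13, adjusted p = 0.962) by genotype over both treatments, -0.24 (SE 0.13, adjusted p = 0.525) by doxorubicin over both genotypes and -0.34 (SE 0.19, adjusted p = 0.810) by doxorubicin in A17α-MHCKO mice. Without A17fl/fl + NS replicate 1 these values were 0.14 (SE 0.11), -0.14 (SE 0.11) and -0.34 (SE 0.14, adjusted p = 0.409). Taken by treatment, the genotype value of Adam10 was 0.14 (SE 0.19) after saline and -0.06 (SE 0.19) after doxorubicin. Without that replicate these 2 values were 0.34 (SE 0.16, adjusted p = 0.501) and -0.06 (SE 0.14). The interaction was -0.20 (SE 0.26) with all libraries and -0.40 (SE 0.21, adjusted p = 0.745) without the replicate.

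Adam19, a sheddase of neuregulins that is needed for the forming heart valves and septum, lies at chr11:46055992-46147343 of GRCm38. Its levels were 91.2, 36.3 and 25.5 CPM in A17fl/fl + NS and 31.1, 34.4 and 29.7 CPM in A17fl/fl + DOX libraries. Among A17α-MHCKO libraries the values were 45.4, 54.2 and 59.5 CPM after saline and 20.7, 19.8 and 21.2 CPM after doxorubicin. The 3 A17α-MHCKO + DOX libraries were the lowest of the 12, with a mean of 20.6 ± 0.73 CPM against 53.0 ± 7.11 CPM in A17α-MHCKO + NS (SD, n = 3). The A17fl/fl groups overlapped.

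In A17α-MHCKO mice the doxorubicin log2 fold change of Adam19 was -1.37 (SE 0.36, unadjusted p = 0.0029, adjusted p = 0.666). Leaving out A17fl/fl + NS replicate 1, which is in neither of these 2 groups, left the log2 fold change at -1.37 and lowered the SE to 0.15, and the adjusted p was 0.0206. It was 0.0399 in a fit on the 2 groups alone and 0.0202 with voom library weights, and it ranged from 0.0202 to 1 over all alternatives. Over both genotypes the value was -1.03 (SE 0.25, adjusted p = 0.285), and -0.67 (SE 0.11, adjusted p = 0.0641) without that replicate. In A17fl/fl mice it was -0.69 (SE 0.36, adjusted p = 0.512), and 0.04 (SE 0.16) without it.

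The difference between the genotypes in this response was not called. The interaction of Adam19 was -0.68 (SE 0.50, adjusted p = 0.844) with all libraries and -1.40 (SE 0.22, adjusted p = 0.254) without A17fl/fl + NS replicate 1. Between the genotypes Adam19 differed by 0.05 (SE 0.35, adjusted p = 0.977) after saline and by -0.63 (SE 0.36, adjusted p = 0.9998) after doxorubicin. Without the replicate, the saline value was 0.78 (SE 0.16, unadjusted p = 5.6e-04, adjusted p = 0.134) and the doxorubicin value -0.62 (SE 0.15, adjusted p = 0.823).

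Markers of other cells moved with Adam19 in A17α-MHCKO mice. The summed level of 8 fibroblast markers, all tested and none at 0, was 2004 to 3052 CPM in A17α-MHCKO + NS and 1673 to 1828 CPM in A17α-MHCKO + DOX libraries. Of these markers, Col3a1 (365 to 801 against 140 to 348 CPM) and Pdgfra (75.4 to 84.5 against 58.95 to 61.6 CPM) did not overlap. The ranges of the other fibroblast markers overlapped between these 2 groups. In A17fl/fl mice that sum was 1414 to 8655 CPM after saline and 1879 to 1984 CPM after doxorubicin. The 4 atrial markers summed to 3864 to 8048 CPM in A17α-MHCKO + NS and 1803 to 3990 CPM in A17α-MHCKO + DOX libraries, and to 332 to 6972 CPM and 1676 to 4744 CPM in the A17fl/fl groups, where Myl7 and Sln were at 0 in some library. Singly, Myl7, Sln and Myl4 were lower in all A17α-MHCKO + DOX than in all A17α-MHCKO + NS libraries. Myl7 had 125 to 308 against 464 to 769 CPM, Sln 63.8 to 151 against 212 to 365, and Myl4 137 to 458 against 577 to 1131. Nppa overlapped, at 1310 to 3072 against 2610 to 6024 CPM. The cardiomyocyte sum ran the other way, from 28260 to 35569 CPM in A17α-MHCKO + NS and from 41304 to 47421 CPM in A17α-MHCKO + DOX libraries. Not every marker of this sum did so. Ryr2 was lower in all A17α-MHCKO + DOX libraries, at 671 to 907 against 956 to 1320 CPM. Myh6 (10921 to 14821 against 12006 to 15259 CPM) and Tnni3 overlapped, while Myh7, Tnnt2, Actc1, Pln, Myl2 and Myl3 were higher. The part of these markers in the Adam19 result was not tested.

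**Figure D4:**
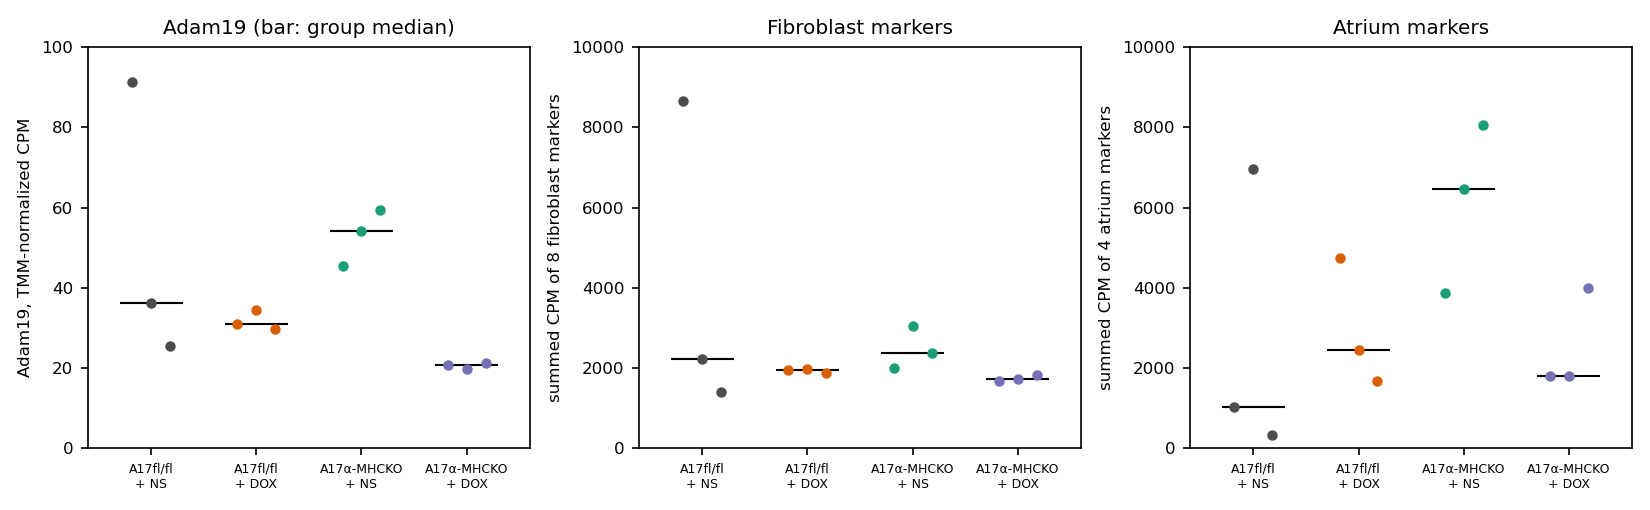
Adam19 in TMM-normalized CPM (left), the summed CPM of 8 fibroblast markers (middle) and that of 4 atrial markers (right) for the 3 libraries of each of the 4 groups, with a bar at the median. Adam19 and the fibroblast sum are lower in all A17α-MHCKO + DOX than in all A17α-MHCKO + NS libraries, and the atrial sums of these groups overlap. Of the single markers, which are not drawn, Myl7, Sln, Myl4, Col3a1 and Pdgfra do not overlap between these groups, and the others do.

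Adam8 and Adam12 were abundant in a single library. In A17fl/fl + NS replicate 1 Adam8 reached 2269 counts, or 131 CPM, while the other 11 libraries gave 0.814 to 3.46 CPM from 14 to 55 counts. Adam12 had 756 counts, or 43.6 CPM, there and between 0.566 and 1.95 CPM elsewhere, from 9 to 30 counts. In all other libraries both genes thus rested on few counts. With that library, doxorubicin in A17fl/fl mice went with a log2 fold change of -4.19 (SE 1.32, adjusted p = 0.372) for Adam8 and -3.98 (SE 1.18, adjusted p = 0.358) for Adam12. Without it the values were 0.15 (SE 0.47) and -0.47 (SE 0.47).

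The same held between the genotypes after saline, where the log2 fold change was -4.77 (SE 1.37, adjusted p = 0.317) for Adam8 and -4.07 (SE 1.18, adjusted p = 0.317) for Adam12 with all libraries. Without that replicate it was -0.44 (SE 0.47) and -0.56 (SE 0.47). Leaving out A17fl/fl + NS replicate 2 instead, so that the library weighed more, brought 3 values past the limit: Adam12 after doxorubicin in A17fl/fl mice (-4.52, adjusted p = 0.0441), and Adam8 (-5.32, adjusted p = 0.0346) and Adam12 (-4.61, adjusted p = 0.0304) between the genotypes after saline. Over all alternatives, the adjusted p of these 4 comparisons lay between 0.0304 and 0.944, and DESeq2 gave none. The neutrophil, fibroblast and macrophage sums of the same library are those given above, and their part in these levels was not tested.

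Adam9 (meltrin γ), a broadly expressed sheddase, was high in that library as well, at 128 CPM against 63.7 and 64.2 CPM in the other A17fl/fl + NS libraries. It had 47.8, 57.2 and 52.1 CPM in A17fl/fl + DOX, 53.5, 49.1 and 54.9 CPM in A17α-MHCKO + NS and 48.5, 53.2 and 33.5 CPM in A17α-MHCKO + DOX libraries. All 3 A17fl/fl + NS libraries lay above the other 9, also without replicate 1. The log2 fold change was -0.71 (SE 0.26, adjusted p = 0.416) for doxorubicin in A17fl/fl mice and -0.70 (SE 0.26, adjusted p = 0.401) between the genotypes after saline, and without the replicate these values were -0.29 (SE 0.17) and -0.29 (SE 0.17). They were -0.22 (SE 0.26, adjusted p = 0.915) for doxorubicin in A17α-MHCKO mice and -0.22 (SE 0.26, adjusted p = 0.9998) between the genotypes after doxorubicin.

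Adam15 (metargidin), a sheddase rich in endothelium, had 192, 87.1 and 108 CPM in A17fl/fl + NS and 111, 121 and 101 CPM in A17fl/fl + DOX libraries. It had 103, 92.5 and 87.6 CPM in A17α-MHCKO + NS and 111, 107 and 94.7 CPM in A17α-MHCKO + DOX libraries, and all 4 groups overlapped. The log2 fold change was -0.27 (SE 0.17, adjusted p = 0.768) by genotype and -0.04 (SE 0.17, adjusted p = 0.951) by doxorubicin, and -0.07 (SE 0.10) and 0.16 (SE 0.10) without A17fl/fl + NS replicate 1. An antisense gene, 4731419I09Rik, overlaps 20.55% of the exon bases of Adam15 and had 285 counts in all 12 libraries together.

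The 2 iRhoms were expressed at similar levels per length and differed little between the groups. Rhbdf1, the more widely expressed iRhom, had 29.4, 27.9 and 30.6 CPM in A17fl/fl + NS, 34.1, 32.3 and 32.1 in A17fl/fl + DOX, 26.9, 28.8 and 29.5 in A17α-MHCKO + NS and 23.3, 33.1 and 30.2 in A17α-MHCKO + DOX libraries. In the library that stood apart its level was within the range of the others. The 3 A17fl/fl + DOX libraries lay above the 3 A17fl/fl + NS libraries, with a log2 fold change of 0.16 (SE 0.13, adjusted p = 0.676). Over both treatments the genotype value was -0.12 (SE 0.09, adjusted p = 0.813), and the doxorubicin value over both genotypes was 0.09 (SE 0.09, adjusted p = 0.732).

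Rhbdf2, the iRhom of immune cells, had 49.8, 17.7 and 27.5 CPM in A17fl/fl + NS and 23.1, 22.5 and 22.9 CPM in A17fl/fl + DOX libraries. It had 24.3, 20.8 and 22.6 CPM in A17α-MHCKO + NS and 19.0, 20.4 and 17.6 CPM in A17α-MHCKO + DOX libraries. The last group lay below both A17fl/fl + DOX and A17α-MHCKO + NS, with log2 fold changes of -0.27 (SE 0.28, adjusted p = 0.9998) and -0.25 (SE 0.28, adjusted p = 0.915). Over both treatments the genotype value was -0.38 (SE 0.20, adjusted p = 0.749), and -0.14 (SE 0.12) without A17fl/fl + NS replicate 1. The doxorubicin value over both genotypes was -0.36 (SE 0.20, adjusted p = 0.530), and -0.12 (SE 0.12) without it. Rhbdf2 FPKM divided by Rhbdf1 FPKM was 2.39 in that replicate, and the other 11 libraries gave 0.825 to 1.28.

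Frmd8, the iRhom-binding subunit, had 29.7, 18.4 and 22.6 CPM in A17fl/fl + NS, 22.7, 20.6 and 19.6 in A17fl/fl + DOX, 19.9, 21.6 and 21.7 in A17α-MHCKO + NS and 21.4, 18 and 21.1 in A17α-MHCKO + DOX libraries. All 4 groups overlapped. The log2 fold change was -0.11 (SE 0.12, adjusted p = 0.869) by genotype and -0.12 (SE 0.12, adjusted p = 0.740) by doxorubicin, and -0.01 (SE 0.09) and -0.02 (SE 0.09) without A17fl/fl + NS replicate 1.

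**Figure D5:**
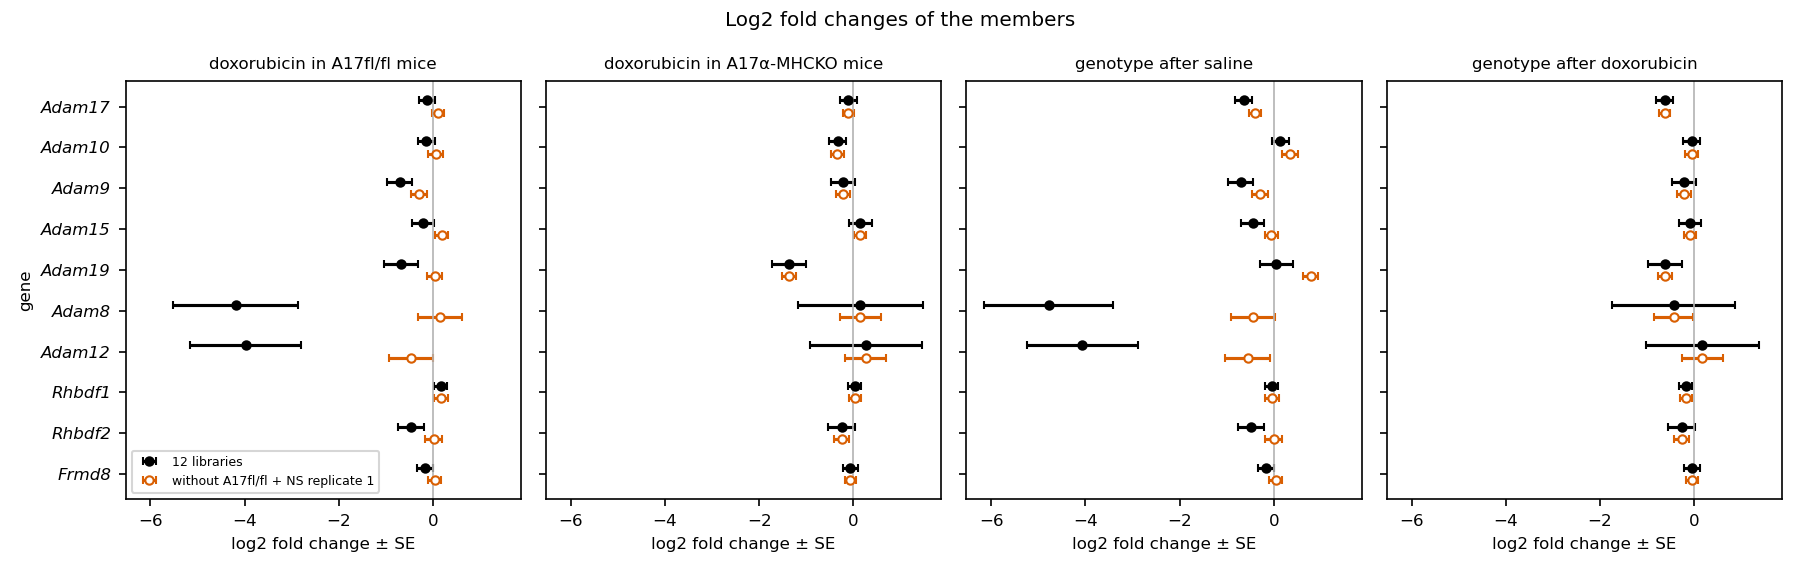
Log2 fold changes with their standard errors for the 10 members in 4 comparisons, from all 12 libraries (filled) and without A17fl/fl + NS replicate 1 (open). The Adam8 and Adam12 values of the comparisons that use A17fl/fl + NS move from between -4.77 and -3.98 to between -0.56 and 0.15. The doxorubicin value of Adam19 in A17α-MHCKO mice, a comparison that does not use that library, stays at -1.37 with a smaller error.

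The median log2 fold change of the 10 members was -0.33 by genotype over both treatments and -0.30 by doxorubicin over both genotypes, beside -0.01 and -0.03 for all genes tested. These medians became -0.13 and -0.06 without A17fl/fl + NS replicate 1, beside 0.00 and 0.00 for all genes. After doxorubicin the median was -0.20 between the genotypes, with and without that library, beside 0.01 for all genes in either fit.

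Genes that act with the sheddases or are cut by them were read from 3 lists. Of 16 other ADAM genes, most of them of testis or brain, 5 were tested, of 30 inhibitors, maturation factors and scaffolds 28, and of 48 shed substrates 41. In none of the 7 comparisons did edgeR call a gene of these lists at an adjusted p under 0.05. At an unadjusted p under 0.05, doxorubicin in A17fl/fl mice went with 1 higher and 11 lower substrates of 41, where 4.11% of all genes were higher and 6.58% lower. Without A17fl/fl + NS replicate 1 it went with 2 higher and 3 lower, where the shares of all genes were 4.63% and 5.6%. Their median log2 fold change was -0.31 and -0.14 in these fits, beside -0.04 and -0.01 for all genes. Between the genotypes over both treatments 4 substrates were lower and 0 higher, with a median of -0.16, where 3.89% of all genes were lower and 2.76% higher. Without the replicate 4 were lower and 1 higher, with a median of -0.09, where the shares of all genes were 4.96% and 5.36%.

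Among the inhibitors, maturation factors and scaffolds, Timp1, an inhibitor of metalloproteases, reached 734 CPM in A17fl/fl + NS replicate 1 while the other 11 libraries gave 2.9 to 10.2 CPM. Furin was higher in the A17fl/fl libraries, with 145 to 254 CPM after saline and 130 to 132 CPM after doxorubicin, against 104 to 130 CPM and 70.6 to 122 CPM in the A17α-MHCKO groups. Its genotype log2 fold change over both treatments was -0.53 (SE 0.17, unadjusted p = 0.0093, adjusted p = 0.736), and -0.38 (SE 0.13) without A17fl/fl + NS replicate 1. Pacsin3, an adaptor that binds the tails of ADAM proteins, had 102 to 115 CPM after doxorubicin in A17fl/fl and 103 to 115 CPM in A17α-MHCKO mice, above the 81.1 to 98.0 CPM and 70.2 to 81.6 CPM after saline. Its doxorubicin value over both genotypes was 0.40 (SE 0.09, unadjusted p = 7.6e-04, adjusted p = 0.211), and 0.38 (SE 0.09) without that replicate. The other 2 genes named by the rule, Sh3d19 and Sh3pxd2a, adaptors with SH3 domains, had log2 fold changes of -0.31 (SE 0.12, adjusted p = 0.420) by doxorubicin over both genotypes and -0.25 (SE 0.14, adjusted p = 0.9998) between the genotypes after doxorubicin. Without the replicate they were -0.41 (SE 0.08, adjusted p = 0.0883) and -0.25 (SE 0.13).

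Among the substrates, the interleukin-6 receptor gene Il6ra had 18.5 to 34.1 CPM in A17fl/fl + NS and 15.2 to 20.9 CPM in A17α-MHCKO + NS, against 13.2 to 18.5 CPM and 13.0 to 13.8 CPM after doxorubicin. Its doxorubicin log2 fold change over both genotypes was -0.57 (SE 0.16, unadjusted p = 0.0048, adjusted p = 0.309), and that of Mertk, the receptor by which macrophages engulf dying cells, was -0.42 (SE 0.14, adjusted p = 0.372). Met, the receptor of hepatocyte growth factor, had a value of -1.11 (SE 0.37, adjusted p = 0.378) for doxorubicin in A17fl/fl mice, at 1.29 to 4.62 CPM. Without A17fl/fl + NS replicate 1 the values were -0.41 (SE 0.12) for Il6ra, -0.41 (SE 0.15) for Mertk and -0.73 (SE 0.35) for Met. The chemokine gene Cx3cl1 and the endocytic receptor gene Lrp1 had genotype log2 fold changes of -0.49 (SE 0.15, adjusted p = 0.736) and -0.43 (SE 0.14, adjusted p = 0.736) over both treatments, and of -0.36 (SE 0.12) and -0.35 (SE 0.12) without that replicate. Cx3cl1 had 11.4 to 12.7 CPM in the A17α-MHCKO libraries and 12.1 to 24.5 CPM in the A17fl/fl libraries. Of the other ADAM genes, Adam22 had the smallest p between the genotypes over both treatments. Its log2 fold change was -0.53 (SE 0.17, unadjusted p = 0.0099, adjusted p = 0.736), and -0.53 (SE 0.18) without the replicate. This mean joins unlike values, -0.998 (SE 0.24, adjusted p = 0.279) after saline and -0.06 (SE 0.24, adjusted p = 0.9998) after doxorubicin. The Adam22 interaction was 0.94 (SE 0.34, unadjusted p = 0.018, adjusted p = 0.828) and was not called. Without the replicate the saline, doxorubicin and interaction values were -1.004 (SE 0.26), -0.06 (SE 0.24) and 0.95 (SE 0.36). Adam11, Adam23 and Adam33 had adjusted p-values of 0.563 or more in the comparisons that named them.

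The 5 tested genes most like Adam17 over the 12 libraries, by Spearman's rho on log2 CPM, were Gm37233 (rho 0.98, Pearson's r 0.82), Dpp9 (0.91 and 0.84), Fbxw11 (0.90 and 0.69), Uba1 (0.87 and 0.87) and Furin (0.87 and 0.88). Dpp9 is a cytosolic dipeptidyl peptidase, Fbxw11 a substrate-binding subunit of a ubiquitin ligase and Uba1 the main ubiquitin-activating enzyme. Without A17fl/fl + NS replicate 1 their rho, in the same order, was 0.98, 0.88, 0.89, 0.84 and 0.83. These values are descriptions of libraries that share 4 groups, and Gm37233, a long non-coding RNA gene, was measured at only 0.668 to 2.22 CPM. Among the members the rho with Adam17 was highest for Adam9 (0.63) and lowest for Frmd8 (0.01).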

How the data were processed

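RNA was sequenced from left ventricles of 12 mice by the authors, who made stranded paired-end mRNA libraries and counted fragments with StringTie. The submitters' processing notes name HISAT2, SAMtools 1.3.1, CASAVA 1.8, edgeR and the build GRCm39. The annotation release and the strand setting are not given in the sources used here. The authors deposited unnormalized counts and FPKM for 53465 genes in 24 columns, none of which was left unused. Positions and sequences come from GENCODE M21 and RefSeq on GRCm38, another build than the one used for counting, and 53360 of the gene identifiers are in M21.

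From the counts, edgeR 4.0.16 (R 4.3.3) kept 16101 genes by filterByExpr. After TMM scaling a single glmQLFit model of the 4 group means covered all 12 libraries, and glmQLFTest took 7 contrasts from it, two-sided, with Benjamini-Hochberg adjustment over all tested genes. Standard errors were derived as |log2 fold change| over √F. CPM used the same TMM scaling, and log2 CPM a prior count of 2. No 2 libraries of a group agreed within counting noise (chi-square per degree of freedom 11.2 or more). Total counts were between 15950717 and 21725076, so a level of 1 CPM rests on few fragments. The code was tested on simulated counts.

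The alternatives were DESeq2 1.42.0, limma 3.58.1 voom with library weights, RLE and upper-quartile normalization, at least 10 counts in every library, no filter, a fit on the 2 groups alone, a replicate block and each library left out in turn. The ratio was also computed from FPKM and against the other 6 sheddases. The members, the gene lists and the tests were chosen with earlier results of these data known. Named genes are the 10 members, the 5 genes most like Adam17 and, from each of the 3 lists, the 2 genes with the smallest p in each of 4 contrasts.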

Additional observations from a re-analysis of the deposited data

How the results depend on the processing

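The 683 recomputed log2 fold changes of the members kept their direction and side of the limit in 650 cases and turned sign in 25. The count of called members went from 0 to 1 for doxorubicin in A17α-MHCKO mice in the fit on the 2 groups alone and with voom weights (Adam19), for the genotypes over both treatments with DESeq2 (Adam17) and for doxorubicin over both genotypes with DESeq2 (Adam19). With 1 library left out it was 0 to 1 for doxorubicin in A17fl/fl mice, 0 to 1 for doxorubicin in A17α-MHCKO mice and 0 to 2 for the genotypes after saline. With voom weights the sign turned for Adam17 after doxorubicin in A17fl/fl mice (0.068) and over both genotypes (0.011), and for Adam15 over both genotypes (0.12). With upper-quartile normalization that Adam15 value was 0.0010. The Adam17 interaction turned to -0.029 with upper-quartile normalization, -0.0056 with at least 10 counts in every library, -0.0028 without a filter and -0.11 with voom weights.

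With 1 library left out the ranges were -0.26 to 0.11 (Adam17) and -1.01 to 0.036 (Adam19) for doxorubicin in A17fl/fl mice, -4.76 to 0.15 for Adam8 there, and -0.27 to 0.78 for Adam19 between the genotypes after saline. They were -0.22 to 0.15 for the Adam17 interaction, -0.023 to 0.14 for Adam10 by genotype, and -0.18 to 0.00020 (Adam17) and -0.14 to 0.16 (Adam15) for doxorubicin over both genotypes. The doxorubicin difference of the log2 Adam17 to Adam10 ratio was 0.092 to 0.18, with an exact permutation p of 0.01 without A17fl/fl + DOX replicate 1 and 0.04 without A17α-MHCKO + DOX replicate 3. The genotype difference of that ratio lay between -0.71 and -0.62 with 1 library left out and passed each time, and with the other 6 sheddases as denominator it was -0.37 and passed. The causes of these shifts were not tested.

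A replicate block gave 0 called members in all 7 comparisons. Of 18 correlations between same-numbered libraries of 2 groups, 3 exceeded 0.1 (range -0.11 to 0.22), so the numbers were not taken as pairs. Adam12 has no value with at least 10 counts in every library. Adam8 and Adam12 rest on 9 to 55 counts outside A17fl/fl + NS replicate 1, which limits what could be detected for them.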
